A study of Mus musculus with 8 samples.

Results

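The peptidylarginine deiminases are the 5 mouse genes Padi1, Padi2, Padi3, Padi4 and Padi6. They were taken by symbol from the 55536 genes counted in MIN6 cells, an insulin-producing line derived from a mouse pancreatic β-cell tumour. The family was chosen by measured values of this series, the log2 fold change of Klf4-transfected over control cells, in which Padi4 was among the strongest responders. The difference between Klf4-transfected and control cells is given for its members as a description, without a test. All 5 symbols were found, each on a single row, and 4 of them passed the filter on low counts. Padi6 did not.

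The series holds 8 poly(A) RNA-seq libraries of MIN6 cells labelled wild type, and all cells had been transfected for 48 h with the lipid reagent Lipofectamine 3000. The 4 control libraries came from cells given the empty vector pcDNA 3, and the 4 Klf4 libraries from cells given pGloMyc-Klf4, a plasmid for the zinc-finger transcription factor Klf4. By name the plasmids differ in backbone as well as in the insert, and the effects of the backbone and of Klf4 cannot be told apart. Replicates 1 and 2 of each group were labelled batch 1, and replicates 3 and 4 batch 2. The series calls them biological replicates of a single cell line, so the p-values measure the spread between transfected cultures of that line.

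Peptidylarginine deiminases are calcium-dependent enzymes that convert arginine residues within proteins to citrulline, a change called deimination or citrullination that removes a positive charge from the side chain. PADI1 and PADI3 act in the epidermis and hair follicle, where their substrates include filaggrin, keratins and trichohyalin. PADI2 is the widely expressed member, studied in brain, muscle and secretory cells. PADI4 can enter the nucleus, deiminates histones and is best known from neutrophils, where it takes part in the release of chromatin as extracellular traps. PADI6 is an oocyte protein of the subcortical maternal complex for which little enzymatic activity is known.

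Libraries held 45417853 to 52731176 counts, and MIN6 identity and the transfected gene were checked first. The insulin gene Ins2, at 16800 ± 2900 CPM in control and 16500 ± 3250 CPM in Klf4 libraries (SD, n = 4), was the most abundant of 12 β-cell markers. These markers summed to 31900 to 39800 CPM (counts scaled to the library total) in control and 29800 to 40100 CPM in Klf4 libraries, so the groups overlapped. Klf4 rose from 40.1 ± 3.11 CPM in control to 5040 ± 567 CPM in Klf4 libraries (SD, n = 4; log2 ratio, meaning the log2 fold change of Klf4 over control, 6.97, SE 0.07, adjusted p = 1.21e-25 in edgeR). Plasmid-derived and endogenous Klf4 reads were counted together. In bulk RNA such as this, more cells with a transcript and more transcript per cell cannot be told apart.

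The 5 genes lie side by side on chromosome 4 of the GRCm38 (mm10) build, in the order Padi6, Padi4, Padi3, Padi1 and Padi2, within 225.2 kb from 140727355 to 140952586. Padi6, Padi4, Padi3 and Padi1 are on the minus strand and Padi2 is on the plus strand. The windows from 250 bases before to 50 bases after the transcription start were taken from RefSeq (GRCm38.p6), which matched all 5 members. They were searched on both strands for CACCC, the core of the sites that Klf4 and related factors bind, for the longer CCCCACCC, which contains CACCC, and for the TATA-box sequence TATAAA. The windows of Padi4, Padi1 and Padi2 are printed 5′ to 3′ along each gene because they hold the highest, the next and the lowest number of CACCC matches in the family. Capitals mark every match on either strand, so that GGGTG in capitals is CACCC on the opposite strand.
Padi4, chr4:140774154-140774453, minus strand: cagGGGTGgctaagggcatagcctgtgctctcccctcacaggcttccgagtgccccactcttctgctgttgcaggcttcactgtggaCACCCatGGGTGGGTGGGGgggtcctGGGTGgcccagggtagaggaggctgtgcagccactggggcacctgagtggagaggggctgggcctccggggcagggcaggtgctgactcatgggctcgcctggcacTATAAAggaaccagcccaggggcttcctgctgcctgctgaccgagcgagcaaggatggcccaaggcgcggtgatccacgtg
Padi1, chr4:140845729-140846028, minus strand: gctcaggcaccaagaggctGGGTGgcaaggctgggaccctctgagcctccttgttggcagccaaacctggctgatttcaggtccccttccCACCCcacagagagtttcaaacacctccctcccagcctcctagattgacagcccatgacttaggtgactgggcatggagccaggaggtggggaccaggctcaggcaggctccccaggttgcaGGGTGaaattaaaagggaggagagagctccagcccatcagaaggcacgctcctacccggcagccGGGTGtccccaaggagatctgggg
Padi2, chr4:140906110-140906409, plus strand: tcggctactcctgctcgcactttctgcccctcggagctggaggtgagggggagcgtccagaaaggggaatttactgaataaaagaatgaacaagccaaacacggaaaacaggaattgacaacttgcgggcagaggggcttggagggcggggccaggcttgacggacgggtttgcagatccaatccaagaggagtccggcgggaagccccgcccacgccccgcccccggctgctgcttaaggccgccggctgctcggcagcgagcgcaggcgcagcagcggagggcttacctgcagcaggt

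The Padi4 window held 5 CACCC matches, 1 on the strand of the gene and 4 on the opposite strand. The match closest to the start began 137 bases before it, and 3 of the 5 lay together between 163 and 148 bases before it, next to or overlapping each other, with the only CCCCACCC match of the family at 152 bases before the start. It also held the only TATAAA of the family, 31 bases before the start. Padi1 had 4 CACCC matches, Padi6 had 3, Padi3 had 2 and Padi2 had none. Of 32851 mouse promoter windows of this length, 57.5% held at least 1 CACCC, 3.1% at least 4 and 1.02% at least 5, while 9.99% held CCCCACCC and 13.6% held TATAAA. The GC content was 66.3% for Padi4, 61.3% for Padi1 and 63.3% for Padi2, against a median of 52.7% over all windows. These matches describe letters in a window and show no binding.

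Padi4, the nuclear histone-deiminating member, was nearly silent in control cells and abundant in Klf4 cells. Padi4 (ENSMUSG00000025330, chromosome 4, 140745865 to 140774236) had 5, 4, 2 and 0 counts in control replicates 1 to 4. In Klf4 replicates 1 to 4 it had 2099, 1723, 2324 and 2447 counts. Every Klf4 library stood far above every control library, and a control library at 3 counts, the floor below which a gene is not reliably detected here, would read 0.0609 to 0.0637 CPM. The level averaged 0.0572 ± 0.0468 CPM in control and 42.3 ± 3.7 CPM in Klf4 libraries (SD, n = 4). The ratio of the group totals, scaled for library size, was 747, with an exact 95% interval of 417 to 1500 that covers counting error only. The fitted log2 fold change was 9.48 (SE 0.14), which ranked 37 among the 18266 tested genes. It was 8.67 in batch 1 and 10.94 in batch 2. The SE is taken from the F statistic and is narrower than the counting interval above, so it understates the error. With so few control counts the fitted value depends on the prior count added in edgeR, and it was 8.77 when that count was raised from its default to 2.

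Padi4 varied little among Klf4 libraries, with no comparison made to the other members, whose far lower counts carry more counting noise. It stood at 40.6 and 38.1 CPM in batch 1 and at 44.2 and 46.4 CPM in batch 2. Set against the Klf4 counts of the same library, there were 8.34, 8.4, 9.01 and 7.93 Padi4 counts per 1000 Klf4 counts in Klf4 replicates 1 to 4, a mean of 8.42 ± 0.448 (SD, n = 4). The library with most Klf4, Klf4 replicate 4 at 5850 CPM, also held most Padi4, and the library with least Klf4, Klf4 replicate 2 at 4530 CPM, held least. Klf4 replicate 4 is of batch 2 and Klf4 replicate 2 of batch 1, so Klf4 level and batch cannot be told apart between them. With 4 libraries no correlation was computed.

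**Figure D1:**
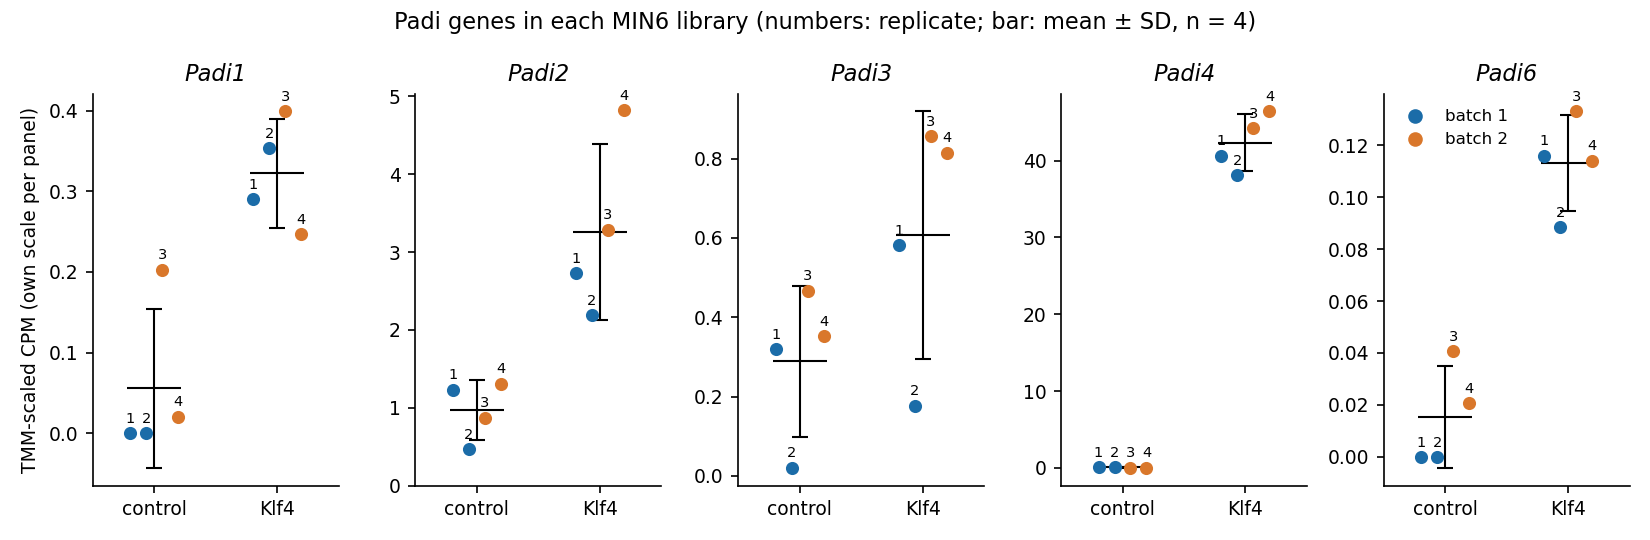
TMM-scaled CPM of each Padi gene (y axis, a separate scale in each panel) in the 4 control and 4 Klf4 libraries (x axis). Points are libraries numbered by replicate and coloured by batch, and the black marks are the mean ± SD (n = 4). Padi4 stands at 38.1 to 46.4 CPM in Klf4 libraries against at most 0.106 CPM in control, and Padi3 is the gene whose groups overlap.

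Padi2, the broadly expressed member, had the highest level of the family in control cells and was also higher in Klf4 cells. Padi2 (ENSMUSG00000028927, chromosome 4, 140906344 to 140952586) had 58, 23, 43 and 63 counts in control replicates 1 to 4 and 141, 99, 173 and 254 counts in Klf4 replicates 1 to 4. The lowest Klf4 library, at 2.19 CPM, lay above the highest control library, at 1.31 CPM. The level went from 0.97 ± 0.382 to 3.26 ± 1.13 CPM (SD, n = 4), a log2 fold change of 1.73 (SE 0.21), with 1.54 in batch 1 and 1.90 in batch 2.

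Padi1 and Padi3, the epidermal and hair-follicle members, stayed below 1 CPM in every library. Padi1 (ENSMUSG00000025329, chromosome 4, 140812983 to 140845778) had 0, 0, 10 and 1 counts in control replicates 1 to 4 and 15, 16, 21 and 13 counts in Klf4 replicates 1 to 4. The groups did not overlap, but control replicate 3, at 0.203 CPM, came close to the lowest Klf4 library at 0.247 CPM. Padi1 went from 0.0559 ± 0.0985 to 0.322 ± 0.0675 CPM (SD, n = 4), a log2 fold change of 2.51 (SE 0.64). That value rested on control replicate 3, and without it the log2 fold change was 5.07. It was 7.0 in batch 1, where both control libraries were at 0 and the fitted value depends on the prior count, and 1.5 in batch 2. Padi3 (ENSMUSG00000025328, chromosome 4, 140785365 to 140810648) had 15, 1, 23 and 17 counts in control replicates 1 to 4 and 30, 8, 45 and 43 counts in Klf4 replicates 1 to 4. Klf4 replicate 2, at 0.177 CPM, lay below 3 of the 4 control libraries, so the groups overlapped. Padi3 went from 0.289 ± 0.19 to 0.607 ± 0.312 CPM (SD, n = 4), a log2 fold change of 1.09 (SE 0.41), with 1.19 in batch 1 and 1.02 in batch 2.

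Padi6, the oocyte member, stayed near the detection floor. Padi6 (ENSMUSG00000040935, chromosome 4, 140727355 to 140742643) had 0, 0, 2 and 1 counts in control replicates 1 to 4 and 6, 4, 7 and 6 counts in Klf4 replicates 1 to 4. Every Klf4 library held more counts than any control library. The ratio of the scaled totals, 23 against 3 counts, was 7.33 with an exact 95% counting interval of 2.21 to 38.1.

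At an adjusted p under 0.05 (quasi-likelihood test of edgeR, Benjamini-Hochberg), 4 of the 4 tested members were called higher, where 21.1% of all tested genes were. Each Klf4 library lay above each control library for 3 of the 4 tested members, where 17.2% of all tested genes showed this. Since this contrast picked the family, and since Padi4, with at most 5 counts in a control library, and Padi1 passed the filter through their Klf4 libraries, nothing is read from these counts.

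Levels of different members were compared per kb of exon. In control cells the order was Padi2 at 0.194 ± 0.0762, Padi3 at 0.084 ± 0.0552, Padi1 at 0.0149 ± 0.0262, Padi4 at 0.0118 ± 0.00968 and Padi6 at 0.00605 ± 0.00769 CPM per kb (SD, n = 4). Padi2 and Padi3 overlapped between libraries, and Padi1, Padi4 and Padi6 were within each other's spread. In Klf4 cells Padi4 came first at 8.75 ± 0.766 CPM per kb, ahead of Padi2 at 0.649 ± 0.226, Padi3 at 0.176 ± 0.0904, Padi1 at 0.0859 ± 0.018 and Padi6 at 0.0446 ± 0.00729 CPM per kb (SD, n = 4). The lowest Klf4 library of Padi4, at 7.87 CPM per kb, was above the highest of Padi2, at 0.961, and the Padi3 and Padi1 libraries overlapped. Summed over the family the level went from 0.31 ± 0.129 to 9.71 ± 1.06 CPM per kb (SD, n = 4). Without Padi4 the sum went from 0.299 ± 0.134 to 0.956 ± 0.297 CPM per kb. Padi4 made up 5.8% ± 6.24 of the family's counts in control and 90.9% ± 1.93 in Klf4 libraries, and Padi2 made up 71.8% ± 12.4 and 6.86% ± 1.66 (SD, n = 4).

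**Figure D2:**
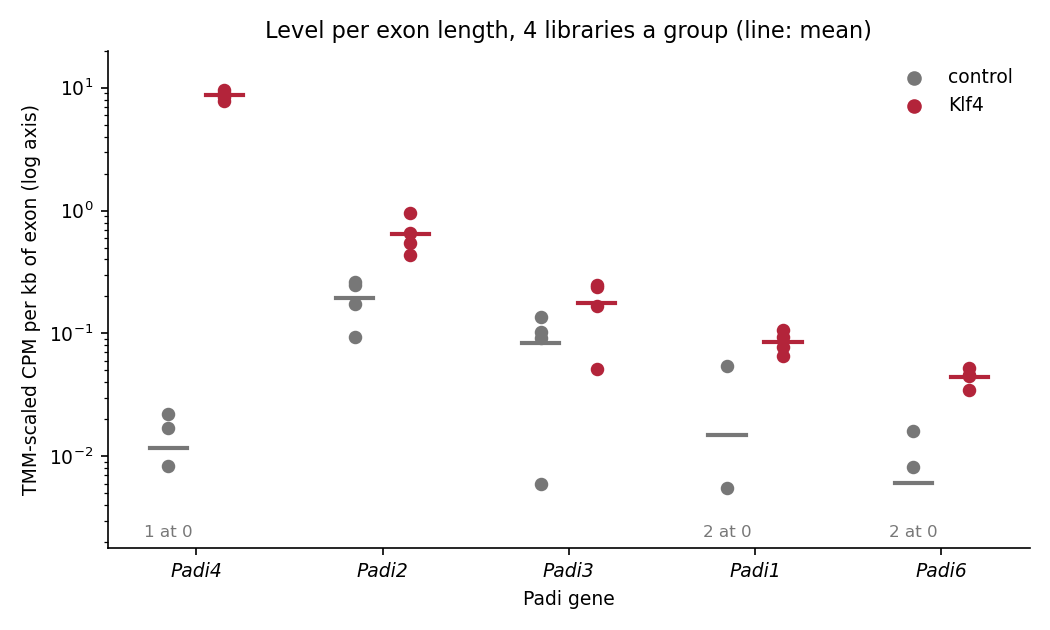
Level of each Padi gene in TMM-scaled CPM per kb of exon (y axis, log scale) by gene (x axis) in control (grey) and Klf4 (red) libraries. Points are libraries, lines are group means, and libraries with no count are given as a number at the bottom. In control cells Padi2 is highest, and in Klf4 cells Padi4 is highest, at 7.87 to 9.6 CPM per kb.

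Batch and replicate number moved with Padi2 and Padi3. In the model with terms for plasmid and batch, batch 2 was higher than batch 1 for Padi2 (log2 0.59, SE 0.21, adjusted p = 0.0421 in edgeR) and Padi3 (log2 1.17, SE 0.41, adjusted p = 0.0416 in edgeR), where 13.4% of all tested genes were called higher in batch 2. The replicate 2 library was the lowest of its group for Padi2 and for Padi3, in control and in Klf4 cells. Without control replicate 2 neither batch difference passed the threshold (edgeR adjusted p = 0.08 for Padi2 and 0.0933 for Padi3), nor without Klf4 replicate 2 (0.164 and 0.165) or Klf4 replicate 4 (0.26 and 0.0838). The Padi2 difference was also lost without control replicate 4 (0.0677) or Klf4 replicate 1 (0.089), and the Padi3 difference without control replicate 3 (0.107) or Klf4 replicate 3 (0.0812). Padi1 and Padi4 had 11 control counts each and passed the filter through their Klf4 libraries. Their batch terms, log2 0.63 (SE 0.59) and log2 0.19 (SE 0.08), are therefore given as a description with no test.

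The size of the plasmid difference was then compared between the batches with an interaction term. For Padi2 and Padi3, which had counts in every control library, it did not pass (log2 0.36, SE 0.40, and log2 -0.17, SE 0.80; edgeR adjusted p = 0.824 and 0.973), where 0.766% of all tested genes did. For Padi1 and Padi4 the term came from control counts near 0 in the contrast that picked the family, so it is given as a description with no test. It was log2 2.27 (SE 0.92) for Padi4, resting on the 11 control counts listed above, and it ranged from 1.36 to 5.45 when 1 library was left out, the highest without control replicate 3. For Padi1 it was log2 -5.50 (SE 1.94), on control counts of 0 and 0 against 10 and 1, and ranged from -6.34 to -3.21.

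The counts of Padi1 and Padi2 carry an uncertainty that those of the other members lack. Exons of Padi1 overlap the non-coding Gm13032 on the opposite strand, and exons of Padi2 overlap the antisense gene Gm13031, and the strand setting of the counting is not given in the sources used here. Gm13032 had 0 to 4 counts in control and 1 to 2 in Klf4 libraries, and Gm13031 had 0 to 3 and 0 to 5. Padi3, Padi4 and Padi6 overlap no other annotated gene. Annotated transcripts of the members share runs of 15 to 63 identical bases, the longest between Padi1 and Padi3, and Padi4 shares at most 35 with any member. How reads that match more than 1 member were assigned is not given in the sources used here.

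The tested genes around the cluster had log2 fold changes between -0.11 and 0.44. Of the 19 annotated genes that lie among the Padi genes or within 250 kb of them, 9 passed the filter, all protein-coding, and 3 were called, 2 higher and 1 lower, where 36.6% of all tested genes were called. The guanine nucleotide exchange factor gene Arhgef10l rose from 21.8 ± 1.99 to 29.5 ± 1.61 CPM (SD, n = 4; log2 ratio 0.44, SE 0.06, adjusted p = 1.85e-06 in edgeR). Necap2, an endocytosis gene, rose from 13.8 ± 1.38 to 16.4 ± 0.787 CPM (log2 ratio 0.26, SE 0.06, adjusted p = 0.00109 in edgeR). Crocc, which encodes the ciliary rootlet protein, fell by 0.11 on the log2 scale (SE 0.03, adjusted p = 0.0112 in edgeR). The Crocc call was lost without the batch term, and when scaling factors were taken from abundant genes only. Mfap2, a microfibril protein gene, had 3.1 ± 0.373 and 3.29 ± 0.398 CPM (log2 ratio 0.08, edgeR adjusted p = 0.641). The nearest tested gene outside the family on the Padi6 side, Rcc2, 4135 bases from Padi6, had 204 ± 6.97 CPM in control and 199 ± 7.05 CPM in Klf4 libraries (SD, n = 4; log2 ratio -0.04, edgeR adjusted p = 0.31). Sdhb, a subunit of succinate dehydrogenase 8617 bases beyond Padi2, had 76.2 ± 1.93 and 75.1 ± 1.71 CPM (log2 ratio -0.02, edgeR adjusted p = 0.675). Of the untested neighbours, the protein-coding Spata21 had 10 counts over the control and 28 over the Klf4 libraries (ratio of scaled totals 2.68, exact 95% counting interval 1.26 to 6.17), and the non-coding Gm13025 had 1 and 6 (ratio 5.73, interval 0.696 to 264). The non-coding 4930515B02Rik, which lies between Padi1 and Padi2, had no count in control and at most 2 counts in a Klf4 library. Rcc2, Sdhb, Spata21, Gm13025 and 4930515B02Rik were named after their values had been seen.

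**Figure D3:**
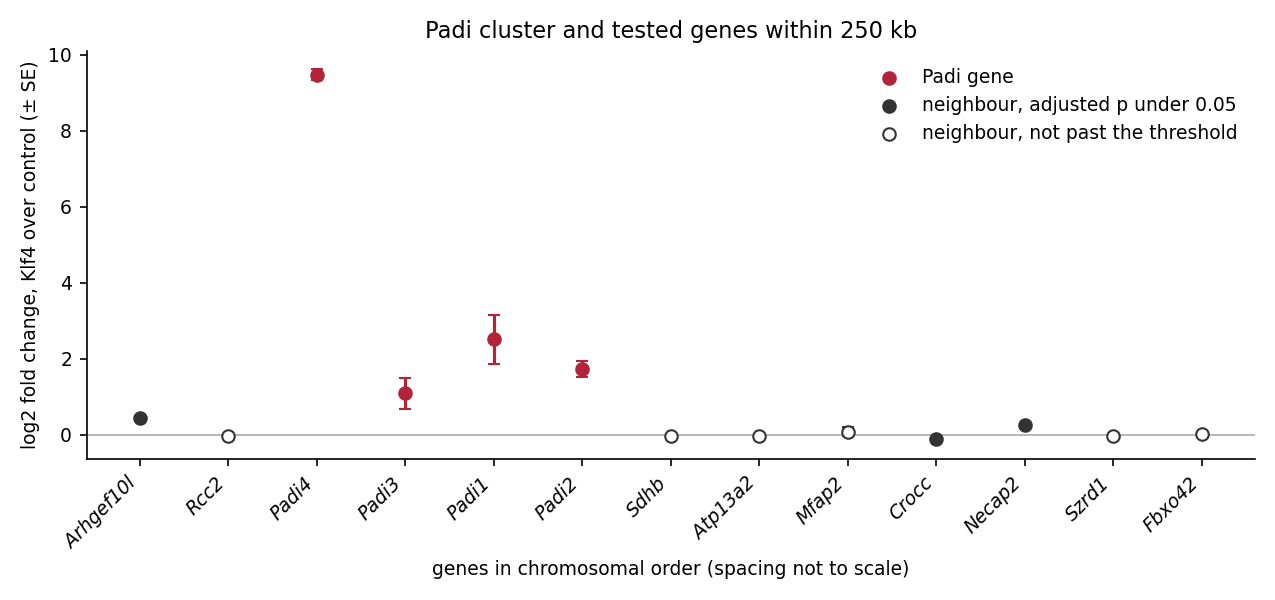
Log2 fold change of Klf4 over control (y axis, ± SE) for the tested Padi genes (red) and the tested genes within 250 kb (black), in chromosomal order (x axis, spacing not to scale). Filled black points passed an adjusted p under 0.05, no test is shown for Padi genes, and Padi6 is absent because it did not pass the filter. The SE of Padi4 is narrower than its counting error. Tested neighbours lie between -0.11 and 0.44, and the tested Padi genes, which were chosen on this contrast, between 1.09 and 9.48.

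Genes whose pattern over the 8 libraries came closest to each tested member were found by the distance between mean-centred log2 CPM profiles, as a description. Closest to Padi4 were S100a14, a calcium-binding S100 gene (Pearson r = 0.998, 0.0725 to 43.7 CPM from control to Klf4), the osteocalcin-family gene Bglap2 (r = 0.998, 0.0516 to 48 CPM) and Slurp1, a secreted Ly6-type protein gene (r = 0.996, 0.0106 to 26.6 CPM). Bglap2 has close paralogues that could share reads. Closest to Padi2 were Fxyd3 (r = 0.967), 9130024F11Rik (r = 0.956) and the semaphorin gene Sema5b (r = 0.954). Closest to Padi1 were the arginase gene Arg1 (r = 0.962), the growth factor gene Bmp6 (r = 0.971) and Map7d3 (r = 0.938). Padi3 had looser matches in Fam126a (r = 0.845), Hs3st2 (r = 0.818) and the spermine oxidase gene Smox (r = 0.825). Each r is over 8 libraries that fall into the groups compared, so that any pair of genes that differ between the groups in the same direction correlates.

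Known protein substrates of deimination did not move together. Of 22 listed substrate genes, 15 were tested and 9 were called, 5 higher and 4 lower, where 21.1% and 15.5% of all tested genes were. Vim and S100a3, with at most 7 and 11 counts in a control library, passed the filter through their Klf4 libraries. The count called higher is therefore not read against its share. The median log2 fold change of the tested substrates was 0.02, and that of all tested genes was -0.01. The intermediate filament gene Vim rose from 0.114 ± 0.0282 to 2.57 ± 0.398 CPM (SD, n = 4; log2 ratio 4.47, SE 0.25, adjusted p = 8.51e-13 in edgeR). S100a3, which encodes a hair cuticle protein deiminated by PADI3, rose from 0.161 ± 0.0526 to 1.19 ± 0.239 CPM (log2 ratio 2.87, SE 0.30, adjusted p = 4.43e-08 in edgeR). The cartilage collagen gene Col2a1 rose from 3.14 ± 0.627 to 9.82 ± 0.926 CPM (log2 ratio 1.65, SE 0.11). Trichohyalin, Tchh, the inner root sheath substrate of PADI3, rose from 0.742 ± 0.329 to 1.4 ± 0.301 CPM (log2 ratio 0.96, SE 0.21, adjusted p = 0.000935 in edgeR). The chemokine gene Cxcl10 fell by 0.81 on the log2 scale (SE 0.22, adjusted p = 0.00599 in edgeR). The other 3 that fell had small log2 ratios: the acetyltransferase gene Ep300 (237 ± 13.7 to 217 ± 12.9 CPM, log2 ratio -0.13, SE 0.04), the kinase gene Gsk3b (175 ± 4.37 to 161 ± 3.95 CPM, log2 ratio -0.12, SE 0.03) and the transcription factor gene Elk1 (36.2 ± 2.37 to 32.3 ± 1.71 CPM, log2 ratio -0.16, SE 0.04). The calls of Ep300, Elk1, Cxcl10 and, among those that rose, Mbp were lost without the batch term. That of Ep300 was also lost with scaling factors from abundant genes or without Klf4 replicate 1.

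Filaggrin and related epidermal substrates had few or no counts, while Krt10 was well detected. Filaggrin, Flg, had no count in control and 0 to 7 counts in Klf4 libraries, Hrnr likewise 0 to 7, and Krt1 0 to 4. Flg2 had no count in any library. Krt10, another epidermal keratin substrate, had 3.86 ± 0.216 CPM in control and 4.22 ± 0.258 CPM in Klf4 libraries (SD, n = 4; edgeR adjusted p = 0.37). Of the most abundant substrates, Npm1, a nucleolar chaperone gene, had 721 ± 49.4 and 722 ± 31.9 CPM (edgeR adjusted p = 0.941), and the enolase gene Eno1 had 651 ± 81.2 and 652 ± 51.5 CPM (edgeR adjusted p = 0.925). Neither passed the threshold. Ep300, Gsk3b, Elk1, Flg, Hrnr, Krt1, Flg2, Krt10, Npm1 and Eno1 were named after their values had been seen.

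Of 10 listed genes for the processing and breakdown of filaggrin, the steps that surround its deimination, 6 were tested, and 4 rose and none fell, where 21.1% of all tested genes rose and 15.5% fell. St14 and Asprv1, with at most 13 and 15 counts in a control library, passed the filter through their Klf4 libraries. The count is therefore not read against those shares. St14, which encodes matriptase, rose from 0.212 ± 0.0429 to 6.12 ± 0.768 CPM (SD, n = 4; log2 ratio 4.84, SE 0.18, adjusted p = 1.1e-15 in edgeR). Asprv1, an aspartic protease gene of the granular layer, rose from 0.187 ± 0.12 to 3.52 ± 0.555 CPM (log2 ratio 4.22, SE 0.28, adjusted p = 2.29e-11 in edgeR). Capn1, the calpain 1 gene, rose from 8.16 ± 1.62 to 31.8 ± 3.66 CPM (log2 ratio 1.97, SE 0.10, adjusted p = 1.79e-13 in edgeR). Blmh, the bleomycin hydrolase that acts on deiminated filaggrin fragments, rose by 0.17 on the log2 scale (SE 0.03, adjusted p = 0.00018 in edgeR). The Blmh call was lost without the batch term. Of the 4 untested genes, Klk5, a kallikrein protease gene, had 2 counts over the control libraries and 5 to 19 counts in each Klf4 library (ratio of scaled totals 25.3, exact 95% counting interval 6.67 to 215). Prss8 had 17 and 32 counts in all, Spink5 had 7 and 8, and Casp14 had no count in control and at most 3 in a Klf4 library. These 4 were named after their values had been seen.

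Other users of arginine were examined because free arginine and peptidyl arginine feed separate routes. In the list of arginine and citrulline metabolism, 14 of 17 genes were tested and 7 were called, 5 higher and 2 lower, where 21.1% and 15.5% of all tested genes were. Arg1, with 4 to 24 counts in control libraries, passed the filter through its Klf4 libraries. The count called higher is therefore not read against its share. With scaling factors from abundant genes the split was 6 higher and 1 lower. Arg1, which encodes the arginase that splits arginine to ornithine and urea, rose from 0.231 ± 0.176 to 1.39 ± 0.248 CPM (SD, n = 4; log2 ratio 2.60, SE 0.32, adjusted p = 8.34e-07 in edgeR). Ddah2, a gene of the family that frees citrulline from methylated arginine, rose from 7.33 ± 0.459 to 16.6 ± 3.47 CPM (log2 ratio 1.17, SE 0.08). Nos1, the neuronal nitric oxide synthase gene, went from 8.34 ± 5.02 to 14.6 ± 5.68 CPM (log2 ratio 0.88, SE 0.10, adjusted p = 1.2e-07 in edgeR), with 1.27 in batch 1 and 0.62 in batch 2. The Nos1 call was lost without the batch term. Ass1, which takes the first step from citrulline back to arginine, rose by 0.31 (SE 0.04) on the log2 scale. The urea cycle gene Cps1 rose from 0.295 ± 0.0614 to 0.65 ± 0.246 CPM (log2 ratio 1.13, SE 0.34, adjusted p = 0.0113 in edgeR), a call lost without control replicate 4, Klf4 replicate 1 or Klf4 replicate 4 (log2 fold change between 0.92 and 1.40 over the alternatives).

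Protein arginine methyltransferases, which modify the same residue as the deiminases, were all tested, and 4 of 9 fell and none rose, where 15.5% of all tested genes fell and 21.1% rose. Prmt6 fell by 0.17 (SE 0.05, adjusted p = 0.00493 in edgeR), Prmt5 by 0.16 (SE 0.03, adjusted p = 0.000293 in edgeR), Prmt7 by 0.14 (SE 0.04, adjusted p = 0.012 in edgeR) and Prmt3 by 0.12 (SE 0.04, adjusted p = 0.0211 in edgeR), all on the log2 scale. Prmt5, the main symmetric dimethyltransferase, had 217 ± 12.7 CPM in control and 195 ± 5.72 CPM in Klf4 libraries (SD, n = 4). The calls of Prmt3 and Prmt7 were lost without the batch term and with scaling factors from abundant genes. That of Prmt3 was also lost without control replicate 3 or Klf4 replicate 4. Prmt8, at log2 0.09 (edgeR adjusted p = 0.0675), was called higher with those factors (log2 0.13, edgeR adjusted p = 0.0121), so that the split became 1 higher and 2 lower, and also with a filter at 1 CPM (log2 0.10, edgeR adjusted p = 0.0366). Prmt8 was named after its values had been seen. The median over the 9 genes was -0.12.

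**Figure D4:**
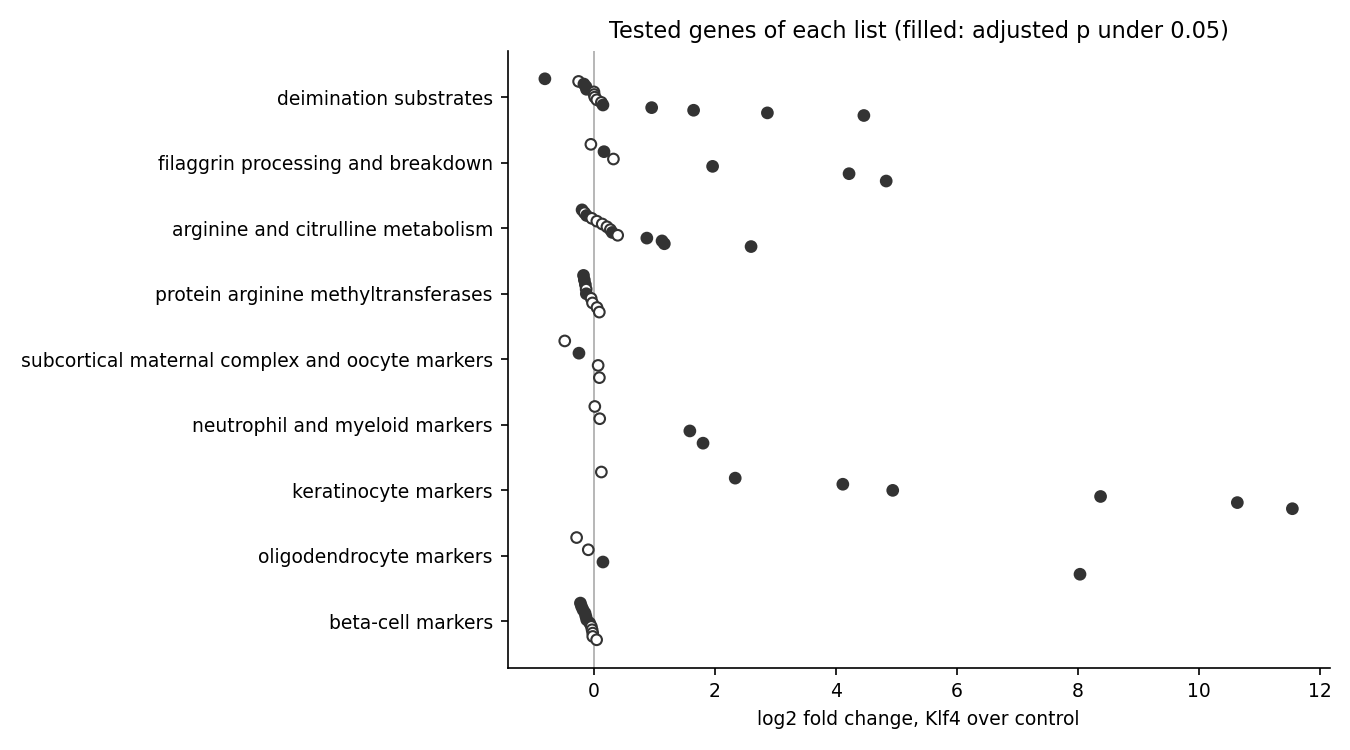
Log2 fold change of Klf4 over control (x axis) for the tested genes of each list (y axis). Each point is a gene, filled where the adjusted p was under 0.05. Tested methyltransferase genes lie between -0.17 and 0.09, and keratinocyte markers reach 11.6, a fitted value that depends on the prior count because control libraries held at most 1 count.

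Markers of cells in which the members are known to be active were measured beside the Padi values. Of 16 neutrophil and myeloid markers, 4 were tested and 2 rose, where 21.1% of all tested genes did. These were Prtn3, the proteinase 3 gene (1.11 ± 0.159 to 3.91 ± 0.426 CPM, SD, n = 4; log2 ratio 1.81, SE 0.14), and Ncf1, a subunit gene of the phagocyte oxidase (0.223 ± 0.0471 to 0.673 ± 0.131 CPM; log2 ratio 1.59, SE 0.31). Ncf1 had 8 to 13 counts in control libraries and passed the filter through its Klf4 libraries. The count of markers that rose is therefore not read against the share of all tested genes. The list summed to 7.23 to 8.26 CPM in control and 10.8 to 12.6 CPM in Klf4 libraries, without overlap. Its largest part was Cd68, at 5.72 CPM in control and 6.13 CPM in Klf4 libraries (edgeR adjusted p = 0.479). Among untested markers, Ncf4, another oxidase subunit gene, had no count in control and 8 to 14 counts in each Klf4 library (at least 3.4-fold higher than a floor of 3 counts per library), and Csf3r, the granulocyte colony-stimulating factor receptor gene, had 10 and 55 counts in all (ratio of scaled totals 5.26, exact 95% counting interval 2.65 to 11.6). Both were called higher when no filter was used. The neutrophil markers Ly6g, S100a8, S100a9, Camp and Ctsg had no count in any library. In all control and all Klf4 libraries, Mpo had 6 and 6 counts, Elane 13 and 10, Ltf 9 and 3, and Itgam 32 and 30. The leukocyte marker Ptprc had 0 to 7 counts in control and 0 to 3 in Klf4 libraries. Cd68 and the markers outside the test were named after their values had been seen, and so were untested markers in the lists that follow.

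Keratinocyte markers were higher in Klf4 cells as a sum, but not each of them. Of 12 listed, 7 were tested and 6 rose, where 21.1% of all tested genes did. Krt14, Krtdap, Dsg3 and Dsg1a, with at most 4 counts in a control library, passed the filter through their Klf4 libraries. They could only be called higher, so the count is not read against that share. The list summed to 7.97 to 9.22 CPM in control and 99.6 to 135 CPM in Klf4 libraries. The basal keratin gene Krt14 had 1 count in all control libraries together and 766 to 1528 in each Klf4 library, a ratio of scaled totals of 4510 with an exact 95% counting interval of 808 to 178000. Krtdap had 1 count in control in all and 445 to 775 in each Klf4 library (ratio 2400, interval 430 to 94800), and the desmoglein gene Dsg3 had 1 and 96 to 162 (ratio 497, interval 88.8 to 19700). Dsg1a, another desmoglein gene, rose from 0.0412 ± 0.0288 to 1.35 ± 0.279 CPM (log2 ratio 4.94, SE 0.40), and suprabasin, Sbsn, from 4.17 ± 0.556 to 72.4 ± 9.94 CPM (log2 ratio 4.12, SE 0.05). Lor rose from 0.248 ± 0.0719 to 1.27 ± 0.234 CPM (log2 ratio 2.34, SE 0.28), with 9 to 17 counts in control libraries. Krt10 had 3.86 ± 0.216 and 4.22 ± 0.258 CPM (edgeR adjusted p = 0.37). Trp63 and Ivl had no count in any library, and Krt1 had none in control and at most 4 in a Klf4 library. Krt5 had 2 to 7 counts in control and 9 to 13 in Klf4 libraries, and the desmocollin gene Dsc1 had 24 and 75 counts in all (ratio 2.99, interval 1.86 to 4.95). Lor and Krt10 were named here after their values had been seen. The part of these markers in the Padi values was not tested.

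Markers of oligodendrocytes and oocytes, in which PADI2 and PADI6 are studied, were measured in the same way. Of 8 oligodendrocyte markers, 4 were tested and 2 rose, where 21.1% of all tested genes did. Olig2 had no count in control and 16 to 56 counts in each Klf4 library. That is at least 10.6-fold higher than a floor of 3 counts per library. Olig2 passed the filter through its Klf4 libraries and could only be called higher. Mbp, also a deimination substrate, rose by 0.15 on the log2 scale (SE 0.04, adjusted p = 0.00583 in edgeR). Its log2 fold change was 0.05 in batch 1 and 0.26 in batch 2, and the call was lost without the batch term. Among untested markers, Olig1 had 1 count over the control and 55 over the Klf4 libraries (ratio of scaled totals 52.6, exact 95% counting interval 9.05 to 2110), and was called higher when no filter was used. Mag had 6 and 23 counts in all (ratio 3.66, interval 1.45 to 11), but its libraries overlapped, with 0 to 4 in control and 1 to 12 in Klf4. Mobp had 33 and 10 (ratio 0.29, interval 0.127 to 0.602), with 6 to 11 in control and 0 to 6 in Klf4 libraries. These intervals leave out the spread between cultures. Mog had no count in control and at most 3 in a Klf4 library. The list summed to 71.7 to 79.6 CPM in control and 78.1 to 83.6 CPM in Klf4 libraries, most of it Mbp at 51.1 and 56.5 CPM. Of 12 oocyte and maternal complex genes, 4 were tested and 1 fell, where 15.5% of all tested genes did. This was Zbed3 (42.1 ± 2.39 to 35.6 ± 2.04 CPM, log2 ratio -0.24, SE 0.05). Without control replicate 3 the count was 2. Nlrp5, a core gene of the complex to which PADI6 belongs, and the oocyte factor gene Bmp15 had no count in any library. The list summed to 58.8 to 65.3 CPM in control and 52.9 to 59.5 CPM in Klf4 libraries. Most of that sum was Zbed3 and Tle6, the latter at 18.2 CPM in control and 19.1 CPM in Klf4 libraries. Tle6 was named after its values had been seen. In the β-cell list 7 of 12 genes fell and none rose, where 15.5% of all tested genes fell, led by Slc30a8 (log2 fold change -0.22), Nkx2-2 (-0.20), Mafa (-0.18), Neurod1 (-0.14) and G6pc2 (-0.13), with a list median of -0.09. Without the batch term 3 of the 7 calls were made.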

How the data were processed

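Read counts per gene were used as deposited, whole numbers that the authors neither normalised nor pooled. Trimming with cutadapt is named by the deposited table itself, and FastQC, STAR, featureCounts, edgeR and the mm10 build are named in the submitters' processing notes. The annotation and strand setting are not given in the sources used here. The extraction text of the labels mentions islets, but every sample is labelled MIN6. All 55536 pairs of symbol and identifier matched GENCODE M21, which gave coordinates and exon lengths. Genes were kept with filterByExpr (minimum count 10), leaving 18266. A gene low in every control library, such as Vim, passed through its Klf4 libraries and could then only be called higher. Counts were scaled with TMM factors (0.996 to 1.01) and fitted in edgeR 4.0.16 (R 4.3.3) with terms for batch and plasmid, as the series names edgeR with batch correction. Quasi-likelihood p-values were adjusted over all tested genes (Benjamini-Hochberg), and SEs are the log2 fold change over the square root of F. Such an SE can fall below counting error where a group holds few counts, as for Padi4. CPM use TMM-scaled totals. Exact intervals of ratios pool the libraries of a group and cover counting error only. The procedure was tested on simulated data.

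Members and lists were chosen with earlier results of these data known. Named genes were the 5 members, Klf4, at most 5 called genes of largest change per list, at most 4 protein-coding neighbours of largest change, and the 3 genes nearest in pattern to each member, with exceptions stated where they occur. Alternatives used DESeq2 1.42.0, limma 3.58.1, other filters and scalings, and each library left out. Libraries of the same group differed beyond sampling noise (chi-square per degree of freedom 3.96 to 5.31 within and 15.8 to 21.1 between batches). Replicate numbers come from the sample titles. Deviations from group means correlated at 0.46 to 0.61 between same-numbered libraries of the groups, and at 0.53 on average between differently numbered libraries of a batch, so a replicate block was also fitted. Protein sequences were not used here. Figures were drawn with Python 3.11.15.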

Additional observations from a re-analysis of the deposited data

Results flagged for a closer look

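Among 18 checks for a library far from the other 3 of its group, 2 stood apart, where chance gives about 1 in 20. Control replicate 3 had 0.203 CPM of Padi1, or 10 counts, against 0 to 0.0207 CPM in the other control libraries. Klf4 replicate 2 had 45400000 total counts against 51900000 to 52700000 in the other Klf4 libraries.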

How the results depend on the processing

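The 44 called genes of the lists and of the neighbourhood kept their sign in every alternative fit that tested them, and all 44 had the same sign in both batches. With a replicate block instead of the batch term, 6284 genes were called against 6684, and none of those 44 calls was lost. Leaving out the batch term gave 4116 calls over the whole table and 27 against 41 in the lists. These were 5 deimination substrates, 3 filaggrin processing genes, 4 genes of arginine metabolism, 2 methyltransferases and 1 oocyte gene. The others were 2 neutrophil and myeloid, 6 keratinocyte, 1 oligodendrocyte and 3 β-cell markers. Of whole-table calls, 57.7% were higher, against 71.8% without the batch term and 72.8% with scaling factors from abundant genes. With no filter 4 neutrophil and myeloid markers were called higher, and with at least 1 CPM in 4 libraries 1 of these and 1 oligodendrocyte marker. At an adjusted p under 0.01, 2 methyltransferases were called.
Leaving out 1 library at a time gave 5889 to 7074 calls over the whole table and 39 to 45 in the lists, of which 1 to 2 were oocyte genes. Log2 fold changes then ranged from 9.04 to 9.94 for Padi4, 1.56 to 2.01 for Padi2, 0.76 to 1.43 for Padi3 and 2.13 to 5.07 for Padi1. The Padi1 value was 3.34 with limma-voom, and Padi4 was 8.77 at a prior count of 2. Batch terms ranged from log2 0.39 to 0.81 for Padi2, 0.86 to 1.67 for Padi3 and 0.14 to 0.23 for Padi4, the last given with no test. DESeq2 gave a batch term of 0.57 for Padi2 (adjusted p = 0.0541) and, again with no test, a term of the opposite sign, -0.32, for Padi4. Interaction terms ranged from log2 -0.50 to 0.88 for Padi2 and -3.07 to 0.95 for Padi3 and changed sign: -0.50 for Padi2 without control replicate 1, and for Padi3 0.72, 0.03 and 0.95 without control replicate 2, control replicate 3 or Klf4 replicate 1. The cause of these differences was not tested. Padi1 and Padi3 gave no value under the filter at 1 CPM, and Padi6 none in any fit with a filter. Depth limits Padi6, Padi1 and the control level of Padi4, which rest on 3 to 11 counts in a group.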
